A study of Capra hircus with 4 samples.

Results

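The genes described here are 7 transcription factors of endothelial cells: ERG, FLI1, ELK3, ETS1, MECOM, PROX1 and SOX18. They were chosen by name, with earlier results of these data known, from the 28944 genes of 4 single-nucleus count matrices of goat ovary. All 7 had UMIs (unique molecular identifiers, each standing for 1 captured RNA molecule) in both kinds of endothelial nuclei. The study compared ovaries of 2 Nubian goats (litter size of 3 or more), from a breed with larger litters, with those of 2 Du'an goats (litter size of 1). All 4 goats were about 3 years old and their estrus was synchronised in the same way, with an intravaginal progesterone device (300 mg, 17 days) and no superovulation. The left ovary of each goat gave 1 library of nuclei. Since each goat gave 1 library, a difference of breed cannot be told apart from any other feature that distinguishes these pairs of animals. Nothing in the labels links goats across breeds.

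Blood vessels and lymphatic vessels are both lined by endothelial cells, and in the ovary both networks are rebuilt with each wave of follicles and corpora lutea. ERG, FLI1, ELK3 and ETS1 belong to the ETS family, whose DNA-binding domain recognises sites in the enhancers of most endothelial genes. SOX18 is a SOXF factor that acts beside them in early vessels and, in the embryo, switches on PROX1 in the veins from which lymphatics sprout. PROX1 is a homeobox factor needed to set up and keep lymphatic identity. MECOM encodes the zinc finger protein EVI1, known from blood stem cells and from arterial endothelium.

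Each nucleus was assigned to a cell type by a marker gate: at least 3 different genes of a cell type's list had a UMI, and every other list had at least 2 fewer. None of the 7 factors was in a list. The blood endothelial gate (FLT1, KDR, VWF, PLVAP, EMCN, NOS3, TEK, NOTCH4) held 622 nuclei, 198 and 210 in Du'an 1 and 2 and 130 and 84 in Nubian 1 and 2. The lymphatic endothelial gate (FLT4, CCL21, LYVE1, RELN, MMRN1, STAB2, PKHD1L1, PDPN) held 982, with 233, 341, 306 and 102 in the same order of goats. The matrices held 48332 nuclei and 40573246 to 71613892 UMIs per library, 44872 nuclei passed quality control, and all gates together took 21110 of them (47.0%), which was 60.1% and 58.8% in Du'an 2 and Nubian 1 but 29.8% and 30.9% in Du'an 1 and Nubian 2. Barcodes found in 2 or more libraries numbered 361. Near the limits of the gates, 116 blood-gated and 99 lymphatic-gated nuclei had exactly 3 list genes, and 329 and 296 nuclei were left out by the margin alone.

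The gates were checked with PECAM1, a junction protein of all endothelium that was in neither list. It was named for this check after its values were seen. Levels are given as counts per 1000000 UMIs of the summed nuclei (CPM). PECAM1 was at 780 ± 176 CPM (SD, n = 4 goats) in blood-gated and 646 ± 117 CPM in lymphatic-gated nuclei. On the TMM-scaled CPM of the edgeR fit, which adjusts each sum's total by a composition factor, it was at 804 and 708, against at most 117 in any other class. Clusters built without the 7 factors and the gate genes gave a second check: 940 of the 982 lymphatic-gated nuclei (95.7%) lay in 1 cluster, which held 1 blood-gated nucleus. The lymphatic list summed to 9552 to 16878 CPM in lymphatic-gated nuclei and 103 to 246 CPM in blood-gated nuclei. The blood list summed to 3838 to 5005 CPM in blood-gated nuclei but still to 921 to 1104 CPM in lymphatic-gated nuclei.

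The question put to these data was how the factors are divided between both vessel types. Raw UMIs were summed per goat and class and fitted with edgeR's quasi-likelihood test with goat as a block, and p-values were adjusted by the Benjamini-Hochberg method over all genes tested. A gene was called at an adjusted p under 0.05. MECOM was higher in blood endothelium, PROX1, ELK3 and ETS1 were higher in lymphatic endothelium, and ERG, FLI1 and SOX18 did not pass the test. Thus 4 of the 7 factors were called, where 2115 of 12129 genes, 17.4%, were called in the same comparison. Because the 7 were chosen with earlier results of these data known, the share is given for scale and is no test of the set.

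MECOM showed the largest difference of the 7. Its level in blood-gated nuclei was 5723 and 3826 CPM in Du'an 1 and 2 and 6384 and 4329 CPM in Nubian 1 and 2. In lymphatic-gated nuclei it was 23.0, 57.7, 24.7 and 9.29 CPM in the same order. Every blood value was far above every lymphatic value, and the means, 5065 ± 1190 and 28.7 ± 20.5 CPM (SD, n = 4), stood 177-fold apart. The fitted log2 fold change was 7.42 ± 0.85 (SE), with an edgeR adjusted p of 1.48e-08.

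In Du'an 2, the goat with the highest lymphatic value, 57 of the 66 MECOM UMIs lay in 10 nuclei that also had UMIs of at least 2 blood gate genes. This was not seen in the other goats, where such nuclei were at 14.5 CPM (Du'an 1), 18.2 CPM (Nubian 1) and 0 CPM (Nubian 2). Lymphatic-gated nuclei with no blood gate gene held 4, 4, 4 and 0 MECOM UMIs in the 4 goats, or 28.6, 34.4, 36.0 and 0 CPM. In Du'an 2, 326 of the 341 lymphatic-gated nuclei lay in the lymphatic cluster, and these held 17 MECOM UMIs (15.3 CPM).

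PROX1 had the opposite pattern. In lymphatic-gated nuclei it stood at 1856 and 1141 CPM in the Du'an and 1734 and 1458 CPM in the Nubian goats. In blood-gated nuclei it stood at 74.0, 43.7, 84.4 and 75.1 CPM. The groups did not overlap, and the means were 1548 ± 318 and 69.3 ± 17.7 CPM (SD, n = 4), a 22.3-fold difference with a log2 fold change of -4.61 ± 0.31 for blood against lymphatic (edgeR adjusted p = 6.75e-14). In blood-gated nuclei with no lymphatic gate gene, PROX1 was at 61.3, 47.5, 94.8 and 76.4 CPM. In those with at least 2 such genes it was at 312, 38.2, 149 and 50.7 CPM, on 1 to 10 UMIs per goat. The part of lymphatic RNA in the blood-gated level was not tested. The calls of MECOM and PROX1 held in all 15 alternative analyses of this comparison.

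**Figure D1:**
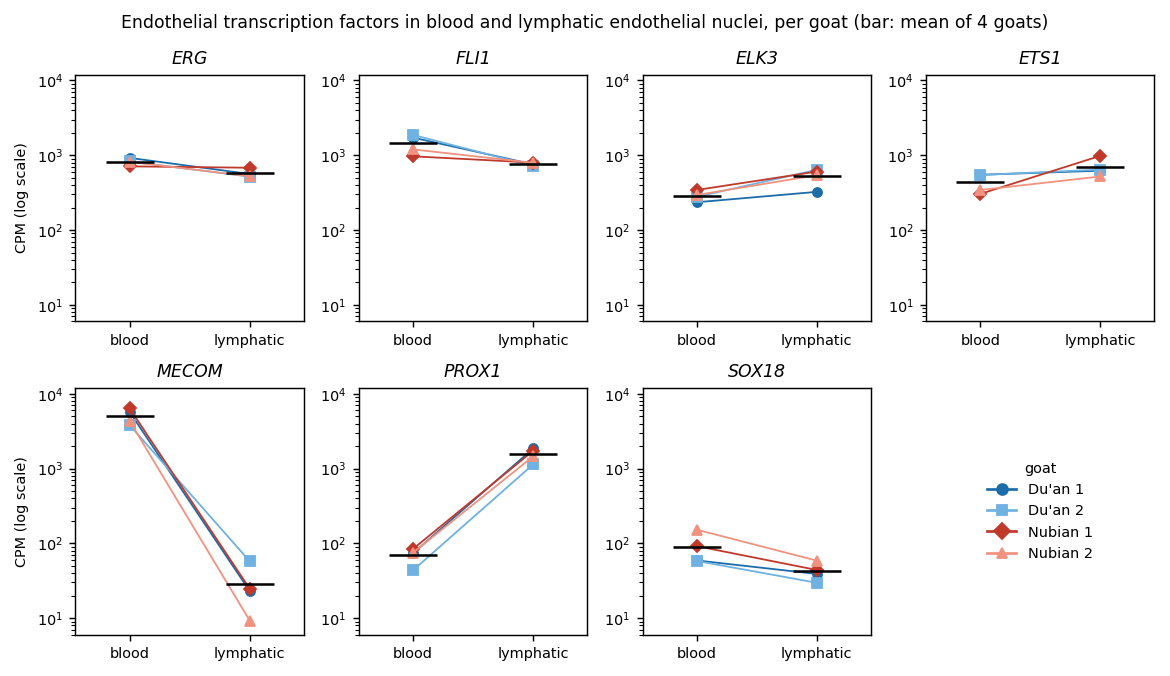
Level of each factor (CPM on a log axis, shared by all panels) in blood-gated and lymphatic-gated nuclei. Each point is 1 goat, a line joins the values of the same goat, and the bar is the mean of 4 goats. MECOM drops from 5065 to 28.7 CPM and PROX1 rises from 69.3 to 1548 CPM from left to right, while the means of the other 5 factors differ by 2.11-fold or less.

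The 4 ETS factors were present in both vessel types, and their means over goats differed by less than 2-fold, although single goats differed by more. ELK3, an ETS factor that works with serum response factor, was at 235, 278, 343 and 294 CPM in blood-gated and at 324, 640, 604 and 542 CPM in lymphatic-gated nuclei. It was higher in lymphatic nuclei within every goat, although the lowest lymphatic value, in Du'an 1, lay below the highest blood value, in Nubian 1. The means were 288 ± 44.6 and 527 ± 141 CPM (SD, n = 4), and the log2 fold change of blood against lymphatic was -0.95 ± 0.22 (edgeR adjusted p = 0.00126). The call was lost only without Du'an 2, with a log2 fold change of -0.78 and an adjusted p of 0.0522.

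ETS1, which is also a lymphocyte factor, was at 549, 545, 304 and 343 CPM in blood-gated and at 622, 644, 983 and 520 CPM in lymphatic-gated nuclei. The means were 435 ± 130 and 692 ± 201 CPM (SD, n = 4), and the ranges overlapped. Most blood-gated nuclei lay in clusters 15 and 21, described below, where ETS1 had means of 712 and 127 CPM. The log2 fold change was -0.75 ± 0.21, with an edgeR adjusted p of 0.0102. This call was less firm than the others: it was lost in 6 of 15 alternatives, at -0.39 and an adjusted p of 0.275 without Nubian 1, at -0.74 and 0.0714 without Nubian 2, and at -0.18 and 0.719 when every nucleus was thinned to 1000 UMIs.

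FLI1, the closest relative of ERG, was at 1721, 1871, 968 and 1198 CPM in blood-gated and at 755, 717, 799 and 793 CPM in lymphatic-gated nuclei. All 4 blood values were above all 4 lymphatic values, but the blood values spread from 968 to 1871 CPM and the lymphatic values by less than 100 CPM. The log2 fold change of 0.79 ± 0.30 did not pass the test (edgeR adjusted p = 0.0625). It did pass in 8 of 15 alternatives, among them the fit without Nubian 2 (0.93, adjusted p = 0.0130) and the thinned nuclei (1.15, adjusted p = 5.85e-04), so FLI1 stood at the threshold.

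ERG, which maintains endothelial junctions and identity, was at 922, 827, 711 and 818 CPM in blood-gated and at 562, 517, 681 and 523 CPM in lymphatic-gated nuclei. The ranges did not overlap, though in Nubian 1 the values were 711 and 681 CPM. The means differed by a factor of 1.44, and neither the main test (log2 fold change 0.48 ± 0.32, edgeR adjusted p = 0.358) nor any of the 15 alternatives called it.

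SOX18 had 212 UMIs in all blood-gated and 132 in all lymphatic-gated nuclei. It was at 59.2, 58.2, 91.9 and 152 CPM in blood-gated and at 39.0, 29.7, 44.1 and 58.8 CPM in lymphatic-gated nuclei. In the gates the blood value was the higher within each goat, but the groups overlapped narrowly, and the log2 fold change of 0.98 ± 0.40 did not pass the test (edgeR adjusted p = 0.0980). When nuclei were classed by cluster, Du'an 1 went the other way, at 26.0 CPM in blood and 30.3 CPM in lymphatic nuclei. The other goats kept the direction. It was called in 3 of 14 alternatives and could not be tested in thinned nuclei.

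The share of nuclei with a UMI gave the same division by MECOM and PROX1. After thinning each nucleus to 1000 UMIs, which kept 573 blood-gated, 849 lymphatic-gated and 13822 granulosa nuclei, MECOM was seen in 87.7 to 94.6% of blood-gated nuclei over the 4 goats. In lymphatic-gated nuclei it was seen in 1.23 to 2.47%, beside 1.29 to 3.54% of granulosa nuclei. Whether these UMIs are background was not tested. PROX1 was seen in 59.0 to 72.8% of lymphatic-gated and in 2.94 to 10.2% of blood-gated nuclei, against 0.407 to 1.38% of granulosa nuclei.

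In the goat with the lowest PROX1 share in blood-gated nuclei, Du'an 2, the exact 95% binomial interval was 1.09 to 6.29% (6 of 204 nuclei), which covers counting error only, as do all intervals and floors given here. Without thinning, the shares were 94.9 to 98.1% and 2.94 to 9.15% for MECOM in blood-gated and lymphatic-gated nuclei (granulosa 5.56 to 9.65%) and 13.8 to 21.4% and 75.1 to 83.0% for PROX1 (granulosa 2.06 to 5.24%). Median UMIs per nucleus were 2632.5 to 4998 in the blood gate, 1562 to 3152.5 in the lymphatic gate and 3520 to 5737 in the granulosa gate.

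The ETS factors were seen in many nuclei of both types at 1000 UMIs. ERG had a UMI in 45.5 to 50.9% of blood-gated and 39.7 to 42.4% of lymphatic-gated nuclei, FLI1 in 54.5 to 71.6% and 45.2 to 49.0%, ELK3 in 17.2 to 21.0% and 22.0 to 43.9%, and ETS1 in 26.4 to 39.5% and 32.1 to 47.7%. In granulosa nuclei no ETS factor exceeded 2.09%. SOX18 was seen in 2.40 to 11.1% of blood-gated and 3.21 to 4.59% of lymphatic-gated nuclei, and in at most 0.127% of granulosa nuclei, so at this depth its shares in both vessel types cannot be put in an order.

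Nuclei were also lined up by the number of blood gate genes minus the number of lymphatic gate genes with a UMI, over the 1664 nuclei in which an endothelial list led every non-endothelial list by at least 2 genes. Only 60 of them had a difference between -1 and 1. At a difference of 0 (11 nuclei) pooled MECOM was at 97.6 CPM and PROX1 at 1366 CPM, close to the lymphatic side. At a difference of 1 (4 nuclei) they were at 4726 and 151 CPM, close to the blood side. With so few nuclei these are descriptions with no replicate check.

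**Figure D2:**
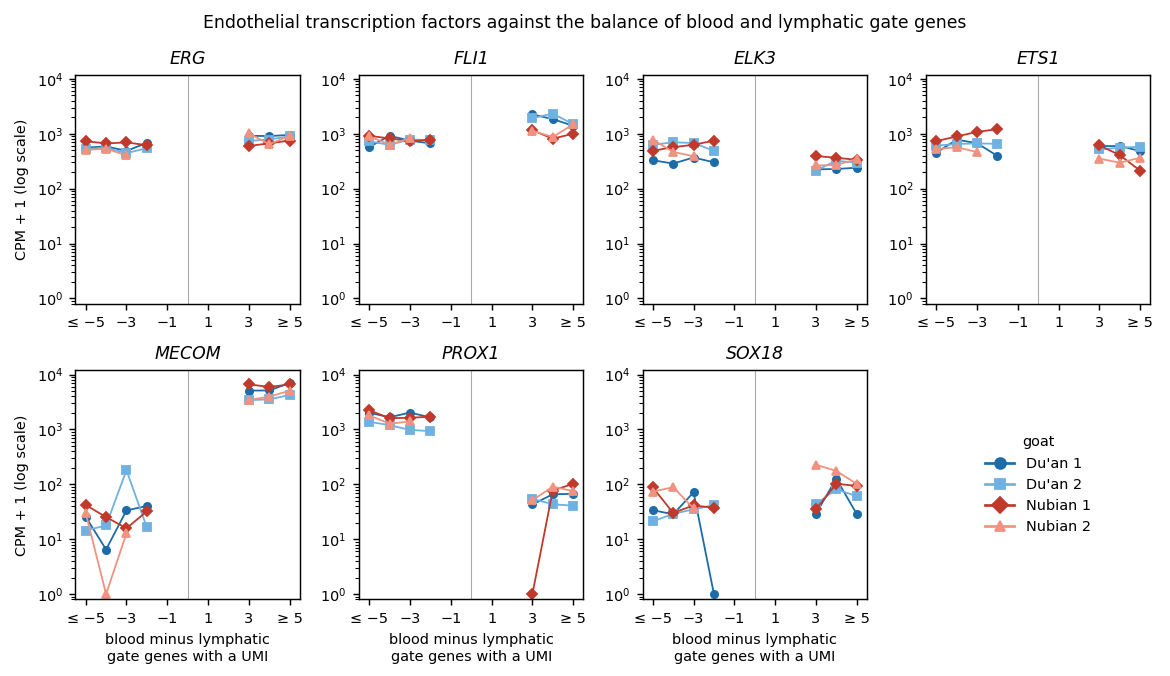
Level of each factor (CPM + 1, log axis) against the number of blood gate genes minus the number of lymphatic gate genes with a UMI in a nucleus. Each point sums at least 20 nuclei of 1 goat, and the ends hold differences of 5 or more in either direction. Few nuclei lie near 0, every MECOM point left of the gap lies below every MECOM point right of it, and PROX1 shows the reverse.

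Blood-gated nuclei were not uniform in their ETS factors. In the clusters built without the factors, gate genes and list genes, 414 of the 622 (66.6%) lay in cluster 15, led by ABCB1, ABCG2, RBFOX3 and VWF, and 198 (31.8%) in cluster 21, led by C16H1orf158, DKK2, BMX, MYRIP and THSD7A. The clusters were made from the same nuclei, so the following values are descriptions and were not tested. Median UMIs per nucleus were 1800 to 3796 in cluster 15 and 4898 to 6186 in cluster 21, and the part of this difference in the levels was not tested.

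FLI1 was at 2960, 2608, 1674 and 1894 CPM in cluster 15 and at 368, 677, 532 and 452 CPM in cluster 21, a 4.50-fold difference of the means (3.15 to 8.05 within single goats). ETS1 was at 910, 785, 624 and 530 CPM in cluster 15 and at 130, 131, 106 and 139 CPM in cluster 21, a 5.62-fold difference (3.82 to 6.98). The values of FLI1 and ETS1 did not overlap between both clusters, and the share of all genes without overlap was not counted. ERG (means 898 and 739 CPM), ELK3 (289 and 282 CPM), MECOM (4408 and 5683 CPM), PROX1 (91.1 and 47.9 CPM) and SOX18 (62.1 and 103 CPM) overlapped.

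Set beside the lymphatic-gated nuclei, the FLI1 values of both blood clusters lay on opposite sides: cluster 15 was above the lymphatic range of 717 to 799 CPM in every goat and cluster 21 below it in every goat. For ETS1, cluster 15 overlapped the lymphatic range of 520 to 983 CPM and cluster 21 lay below it. The ETS1 mean of cluster 15 was 712 CPM, beside 692 CPM in lymphatic-gated nuclei. Within goats, cluster 15 was above the lymphatic-gated value in Du'an 1, Du'an 2 and Nubian 2 and below it in Nubian 1. The part of cluster 21 in the ETS1 call between vessel types was not tested. Cluster 21 made up 29.3% and 23.3% of blood-gated nuclei in Du'an 1 and 2 and 45.4% and 38.1% in Nubian 1 and 2, and 46.4, 36.0, 61.7 and 47.9% of their UMIs.

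FLI1 and ETS1 were also counted together in single nuclei, without separating the clusters. At 1000 UMIs, ETS1 had a UMI in 51.3, 48.6, 30.3 and 44.4% of the blood-gated nuclei with a FLI1 UMI, and in 14.8, 15.5, 21.8 and 13.9% of those without. In lymphatic-gated nuclei the shares were 37.0, 47.7, 51.6 and 46.2% with FLI1 and 33.7, 44.0, 44.5 and 19.0% without. The gap had the same direction in all 4 goats in both types and was wide in 3 goats for blood-gated nuclei. In lymphatic-gated nuclei it was wide in 1 goat, Nubian 2, and narrow in the others. No interval was computed for these gaps, so the narrow ones were not told apart from counting error. ETS1 and FLI1 are neighbouring protein-coding genes in the RefSeq annotation of the goat assembly ARS1.2.

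**Figure D3:**
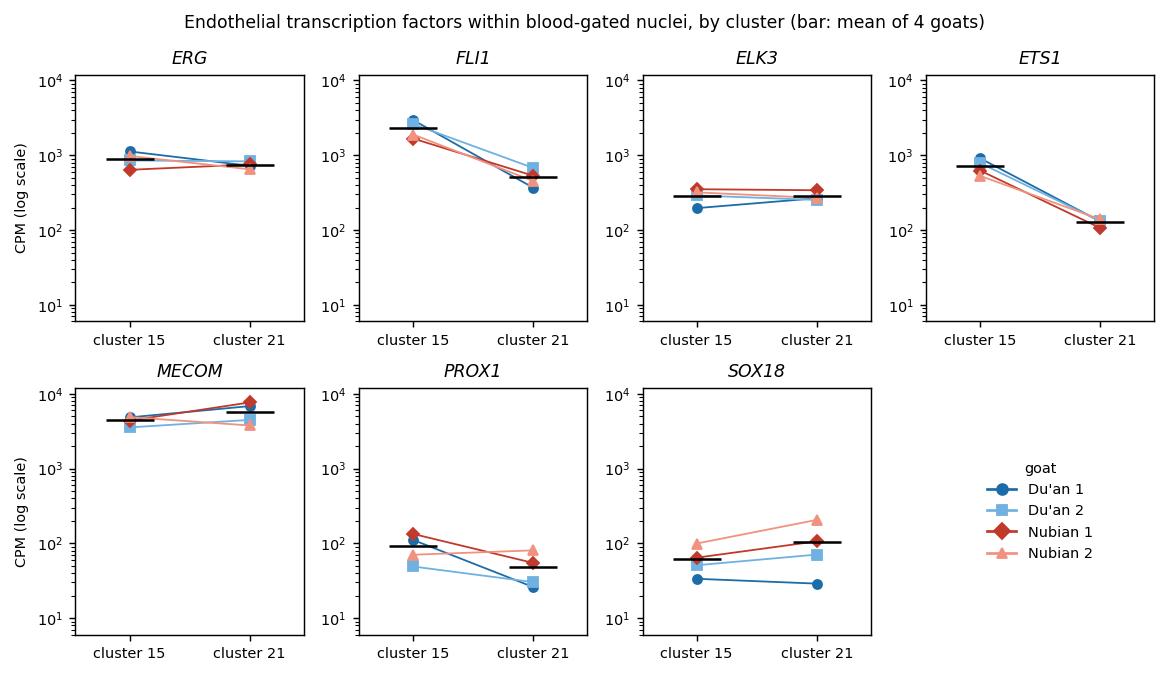
Level of each factor (CPM on a log axis, shared by all panels) in blood-gated nuclei of clusters 15 and 21. Each point is 1 goat, lines join a goat's values, and the bar is the mean of 4 goats. FLI1 has means of 2284 and 507 CPM and ETS1 of 712 and 127 CPM in clusters 15 and 21 with no overlap, while the points of the other 5 factors overlap. The share of all genes without overlap was not counted.

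All 7 factors were higher in blood-gated nuclei than in the mean of 8 other classes (granulosa, granulosa progenitor, smooth muscle, stromal, fibroblast, ciliated, T or natural killer, and macrophage), where 30.4% of all genes tested were called in either direction. Those called higher were 2372 of 12129 genes. On the log2 scale the difference was 5.69 ± 0.24 (SE) for ERG, 4.60 ± 0.20 for FLI1, 3.29 ± 0.16 for ELK3, 3.55 ± 0.16 for ETS1, 5.88 ± 0.42 for MECOM and 2.33 ± 0.25 for PROX1. In lymphatic-gated nuclei, 6 of 7 were higher than in the other classes, where 27.3% of genes were called in either direction and 2233 of 12129 were called higher. There the log2 difference was 5.21 ± 0.24 for ERG, 3.80 ± 0.21 for FLI1, 4.24 ± 0.15 for ELK3, 4.30 ± 0.15 for ETS1 and 6.94 ± 0.19 for PROX1. These calls held in every alternative in which the gene could be tested. Here too the factors were chosen with earlier results known, so the shares of all genes are given for scale only.

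The exception was MECOM, whose lymphatic level was not higher than that of the other classes (-1.55 ± 0.64, edgeR adjusted p = 0.0711). It was called lower in 5 of 14 alternatives and stood at -0.51 without Nubian 2, so its place relative to non-endothelial nuclei was not settled.

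Among gated nuclei, SOX18 had few UMIs outside endothelium. There were 65 among 91890020 UMIs of the 8 other gated classes (0.707 CPM pooled), 51 of them in granulosa nuclei. It was at 0 UMIs in the macrophage, stromal, ciliated and granulosa progenitor sums, and the highest class mean after the endothelial ones was 1.71 CPM in smooth muscle. Against 90.4 ± 44.2 and 42.9 ± 12.2 CPM (SD, n = 4) in blood-gated and lymphatic-gated nuclei, no goat's value in another gated class exceeded 4.17 CPM.

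This did not hold when nuclei were classed by cluster instead of by gate. In the 5118 nuclei of clusters named fibroblast, SOX18 was at 67.9, 18.1, 16.5 and 9.49 CPM in Du'an 1 and 2 and Nubian 1 and 2, a mean of 28.0 CPM beside 58.5 CPM in the blood and 32.8 CPM in the lymphatic clusters. In Du'an 1 the fibroblast value was above those of both vessel types (26.0 and 30.3 CPM), but its 22 UMIs lay in 3 nuclei. Over all goats, 137 SOX18 UMIs lay in cluster 6 (2494 nuclei with a median of 809 UMIs), at 42.1 CPM. The other fibroblast clusters (9, 22 and 28) held 8, 3 and 1, at 2.36, 1.82 and 4.23 CPM. In cluster 6 the blood list summed to 231 CPM and the lymphatic list to 818 CPM, PECAM1 was at 51.0 CPM and the fibroblast list at 1451 CPM. In the 116 nuclei of this cluster from Du'an 1, the blood, lymphatic and fibroblast lists were at 760, 713 and 459 CPM. The part of endothelial RNA in the SOX18 values was not tested.

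After both endothelial classes, ERG was highest in the fibroblast gate (COL1A1, COL1A2, COL3A1, LUM, COL5A2, POSTN), at 340 ± 100 CPM (SD, n = 4; 244 to 480), below every lymphatic value. Shares of these nuclei with an ERG UMI ran from 2.86 to 24.8% over the goats. The lowest share was that of Nubian 2, with 35 nuclei, where the 244 CPM rested on a single nucleus. Smooth muscle followed at 63.1 and stromal nuclei at 59.9 CPM, with overlapping ranges, and every other class mean was at most 14.2 CPM. In the 286 fibroblast-gated nuclei, the summed blood gate list was at 58.6 to 158 CPM and the lymphatic list at 158 to 362 CPM, SOX18 had 1 UMI and PECAM1 was at 11.3 TMM-scaled CPM. The ERG level depended on how fibroblasts were chosen: over the 5118 nuclei of clusters named fibroblast its mean was 83.8 CPM (27.1 to 143 CPM), near the 72.1 CPM of the pericyte cluster. Cluster 22, in which the fibroblast list was highest (7583 CPM), had ERG at 440 CPM, with 425 of its 447 nuclei from Nubian 1. The larger clusters 6 and 9 had ERG at 35.6 and 33.7 CPM. In the annotation ERG overlaps a tRNA gene and FLI1 and MECOM overlap lncRNA genes, and whether strand was used in counting was not given in the sources used here.

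FLI1 and ELK3 came next in leukocytes. FLI1 was at 523 ± 107 CPM in macrophage-gated and 469 ± 96.4 CPM in T or natural killer nuclei (SD, n = 4), values that overlapped each other and lay below every lymphatic value. ELK3 was at 101 ± 17.6 CPM in T or natural killer and 69.9 ± 18.0 CPM in macrophage-gated nuclei, below both endothelial classes.

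ETS1 was the only factor whose highest class mean was not endothelial. It was at 958 ± 92.5 CPM in T or natural killer nuclei (SD, n = 4; 839 to 1035), which overlapped the lymphatic range, and the lymphatic range overlapped that of blood. Macrophages, the other leukocyte class, were at 3.20 ± 2.03 CPM, the lowest of the gated classes, and at 18.4 CPM when classed by cluster, above the granulosa clusters (6.90 CPM). FLI1, by contrast, had similar levels in both leukocyte classes.

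Among the summed gates MECOM was next highest in ciliated nuclei, at 1413 and 2249 CPM in the 2 goats with enough nuclei (Du'an 2 and Nubian 2). Epithelial nuclei, too few in their gate to be summed, were at 1506 and 3128 CPM in the same goats, and the cluster named epithelial (539 nuclei, 4 goats) had a mean of 2214 CPM (1092 to 3742 CPM) beside 1808 CPM in the ciliated cluster. Values in the granulosa progenitor (3.22 and 390 CPM), macrophage (0 to 490 CPM) and stromal classes (27.3 to 428 CPM) varied widely between goats, with the highest value in Nubian 2 in each. Below these, fibroblast, smooth muscle, lymphatic, T or natural killer and granulosa nuclei formed a run of overlapping values with means from 58.3 down to 22.2 CPM. The lymphatic range of 9.29 to 57.7 CPM enclosed the granulosa range of 12.4 to 33.1 CPM.

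PROX1 was highest in lymphatic and next in blood-gated nuclei, with no overlap between them. Ciliated nuclei came next at a mean of 22.8 CPM, and all lower classes overlapped their neighbours, down to 6.30 CPM in T or natural killer nuclei. A single stromal sum reached 46.8 CPM, above the lowest blood value of 43.7 CPM.

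**Figure D4:**
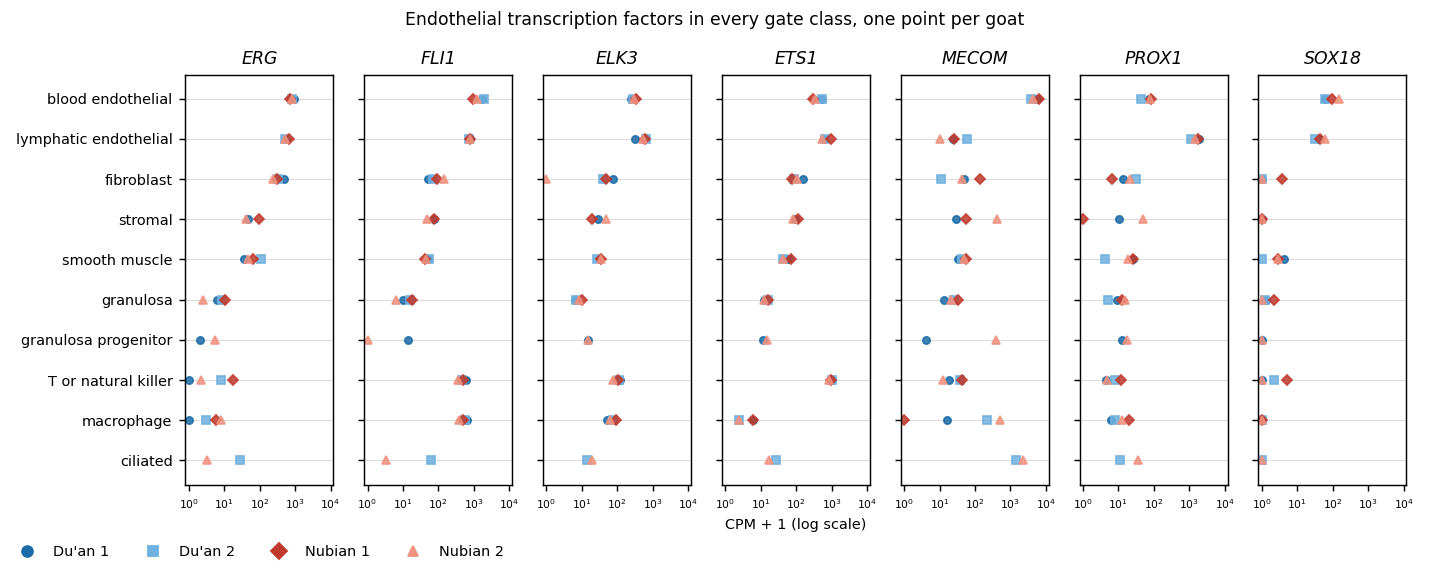
Level of each factor (CPM + 1, log axis) in each of 10 classes, with 1 point per goat with at least 20 nuclei. In these gates SOX18 is near 0 outside the endothelial rows. In clusters named fibroblast its mean was 28.0 CPM, with most of its UMIs in cluster 6, where endothelial gate lists were also present. ETS1 has its highest mean in T or natural killer nuclei (958 CPM, beside 692 CPM in lymphatic nuclei), and the points of these classes overlap. MECOM has high points in blood endothelial and ciliated nuclei.

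The genes whose class means followed each factor most closely were found with Pearson's r of log2 CPM over the 10 class means, among 12122 genes, as a description over points that share their libraries. The r values and the levels of these genes are on the TMM-scaled CPM of the edgeR fit. ERG was followed by RUNX1T1 (r = 0.974), EBF1 (0.965) and LTBP4 (0.961). RUNX1T1, a transcriptional corepressor, was at 968 ± 83.4 (SD, n = 4) TMM-scaled CPM in blood-gated, 665 ± 80.3 in lymphatic-gated and 418 ± 108 in fibroblast-gated nuclei, the same order as ERG. ELK3 was followed by PECAM1 (0.966) and the unnamed loci LOC102171143 (0.966) and LOC108636023 (0.959).

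MECOM was followed by HEY1 (0.973), a NOTCH target, MALL (0.969) and LOC108633458 (0.956). HEY1 was at 41.9 ± 27.2 TMM-scaled CPM in blood-gated nuclei and at 11.1 and 16.3 in both ciliated sums, with no UMI in lymphatic-gated nuclei. PROX1 was followed by SCN3B (0.984), a sodium channel subunit at 91.5 ± 34.9 TMM-scaled CPM in lymphatic-gated and 9.04 ± 7.37 in blood-gated nuclei, PCDH12 (0.964) and NOV (0.953). SOX18 was followed by AQP1 (0.995), a water channel, TDRD10 (0.994) and ECSCR (0.985), an endothelial surface protein at 75.5 ± 12.3 and 72.3 ± 17.3 TMM-scaled CPM in blood-gated and lymphatic-gated nuclei.

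ETS1 was followed by ITGA1 (0.942), CBX7 (0.914) and LOC102175755 (0.906). ITGA1, an integrin subunit, was at 579 ± 153, 391 ± 148 and 363 ± 64.0 TMM-scaled CPM in blood-gated, lymphatic-gated and T or natural killer nuclei. The genes closest to FLI1 were the unnamed loci LOC108637674 (0.970), LOC108633278 (0.965) and LOC108633177 (0.962). Unlike FLI1, LOC108633278 was highest in leukocytes, at 535 TMM-scaled CPM in macrophage-gated and 508 in T or natural killer nuclei. It was at 310 in blood-gated and 284 in lymphatic-gated nuclei. LOC108637674 was also highest in macrophage-gated nuclei (110), while LOC108633177 was highest in blood-gated nuclei (43.8).

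Other members of the ETS family were compared in the same fit. Their list, like those below, was chosen with earlier results of these data known. Of 21 listed, 13 had enough counts, and 1 differed between the vessel types: ETV1 was lower in blood-gated nuclei (6.44 to 15.8 CPM) than in lymphatic-gated nuclei (19.5 to 45.6 CPM), with a log2 fold change of -1.70 ± 0.51 and an edgeR adjusted p of 0.0165. The groups did not overlap. Against the 8 other classes, 4 of the 13 were higher in each endothelial class and none was lower, near the 30.4% and 27.3% of all genes called in these comparisons. The median log2 fold change of the 13 between vessel types was -0.31, with -0.02 over all genes tested.

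Among 30 other endothelial transcription factors, 28 were tested, 8 were higher in blood-gated and 6 in lymphatic-gated nuclei, where 17.4% of all genes were called in either direction. The median log2 fold change was -0.29. Those called in blood were EPAS1, HEY1, HEY2, FOXF1, SOX17, GATA2, FOXC1 and TBX3. The TBX3 call rests on 10 UMIs in all blood-gated and 2 in all lymphatic-gated nuclei. EPAS1, the hypoxia factor HIF2A, was at 1023, 1121, 842 and 689 CPM in blood-gated and at 97.4, 138, 83.5 and 164 CPM in lymphatic-gated nuclei (log2 fold change 2.88 ± 0.34, edgeR adjusted p = 3.57e-08). HEY1 had 96 UMIs in blood-gated and 0 in lymphatic-gated nuclei, and was at least 41.5-fold higher against a floor of 3 counts over the group. FOXF1 had 49 and 0 UMIs, at least 21.2-fold higher. SOX17, a SOXF relative of SOX18, had 136 UMIs and 1 UMI, a ratio of CPM of 176 with an exact 95% interval of 31.1 to 7010.

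Called in lymphatic nuclei were TBX1, NR2F1, SMAD1, NFATC1, KLF4 and NR2F2, the last of them the venous factor COUP-TFII, a known partner of PROX1. TBX1, a T-box factor, had 1188 UMIs in lymphatic-gated and 2 in blood-gated nuclei, a ratio of 458 (exact 95% interval 127 to 3790). NR2F1 was at 6.72, 9.71, 7.50 and 2.15 CPM in blood-gated and at 530, 336, 463 and 402 CPM in lymphatic-gated nuclei (log2 fold change -6.06 ± 0.53, edgeR adjusted p = 4.17e-11). SMAD1, a signal carrier of BMP receptors, stood at -3.03 ± 0.26 (adjusted p = 2.21e-11), and NFATC1, a factor of lymphatic valves, at -2.86 ± 0.36 (adjusted p = 9.43e-08).

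Of 18 endothelial genes with known ETS or SOXF control, 16 were tested, and the list was split: 6 were higher in blood-gated and 3 in lymphatic-gated nuclei, against 17.4% of all genes called, with a median log2 fold change of 0.37. The highest in blood were MMRN2 (4.30 ± 0.55, edgeR adjusted p = 1.23e-06), CLEC14A (4.25 ± 0.53, 1.39e-07) and ESAM (3.01 ± 0.54, 1.01e-04), which sit at endothelial contacts and the matrix, and ENG (2.80 ± 0.36, 2.00e-07), a coreceptor of TGF-beta family ligands. Higher in lymphatic nuclei were ANGPT2 (-2.62 ± 0.53, 2.72e-04), a TIE2 ligand, NOTCH1 (-1.67 ± 0.36, 6.36e-04) and HDAC9 (-1.05 ± 0.30, 0.0104). Against the 8 other classes, 14 of the 16 were higher and 1 was lower in blood-gated nuclei. In lymphatic-gated nuclei 15 were higher and none was lower. Of all genes, 30.4% and 27.3% were called in either direction in these comparisons.

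Of 17 lymphatic genes linked to PROX1, 16 were tested, 6 were higher in lymphatic-gated nuclei and 2 in blood-gated nuclei, against 17.4% of all genes called, with a median log2 fold change of -0.17. SEMA3D, a semaphorin, was at 25.5, 10.9, 7.50 and 2.15 CPM in blood-gated and at 733, 585, 778 and 715 CPM in lymphatic-gated nuclei (-5.94 ± 0.42, edgeR adjusted p = 3.13e-13). NRP2, the coreceptor of VEGFC, followed at -3.32 ± 0.27 (1.05e-11), then ANGPT2, which is also in the list above, and GJA1 at -2.49 ± 0.32 (1.17e-07). The opposite direction was taken by VEGFC, the lymphatic growth factor itself, at 168, 49.7, 446 and 109 CPM in blood-gated against 5.31, 12.2, 16.2 and 24.8 CPM in lymphatic-gated nuclei (3.79 ± 0.54, 1.12e-06), and by CLDN5, a tight junction protein (2.29 ± 0.34, 2.62e-06).

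The breeds were compared within each vessel type, 2 goats against 2, by the same edgeR test without a block. No factor was called, and neither was any of the 7461 genes tested in blood-gated or the 8002 in lymphatic-gated nuclei (0% in each). At an unadjusted p under 0.05 there were 194 and 336 genes, and DESeq2 called 2 and 3. Among blood-gated nuclei, SOX18 was higher in both Nubian goats (91.9 and 152 CPM) than in both Du'an goats (59.2 and 58.2 CPM), with a log2 fold change of 1.07 ± 0.37. ETS1 was lower, at 304 and 343 against 549 and 545 CPM (-0.74 ± 0.29), and FLI1 was lower, at 968 and 1198 against 1721 and 1871 CPM (-0.71 ± 0.36). The edgeR adjusted p was 0.999 for each, and none of 11 alternatives called any of the 7. The blood-gated values of ERG, ELK3 and PROX1 did not overlap between the breeds either, while those of MECOM did. What share of all genes had no such overlap was not counted. With 2 goats against 2, values can separate without any difference between breeds, so no conclusion is drawn from these separations.

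Values that moved with breed in the blood gate were the share of cluster 21 (45.4 and 38.1% in the Nubian against 29.3 and 23.3% in the Du'an goats) and the median UMIs per nucleus (3573.5 and 4998 against 2632.5 and 3069.5), and their part in the breed differences was not tested. Within cluster 15 both FLI1 and ETS1 were lower in both Nubian goats (1674 and 1894 against 2960 and 2608 CPM, and 624 and 530 against 910 and 785 CPM). Within cluster 21 the FLI1 values of the breeds overlapped, and so did those of ETS1.

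In lymphatic-gated nuclei the log2 fold changes of Nubian over Du'an were between 0.12 and 0.59 for 6 factors and -1.08 ± 0.58 for MECOM, which rests on 3 to 66 UMIs per goat. The breed difference was also compared between the vessel types, by the interaction term of a fit over the 8 endothelial sums. None of 8521 genes was called (0%), with 388 at an unadjusted p under 0.05 and 1 by DESeq2. The interaction was -0.88 ± 0.30 for FLI1, -0.98 ± 0.40 for ETS1 and 1.35 ± 0.62 for MECOM, each with an edgeR adjusted p of 1.

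**Figure D5:**
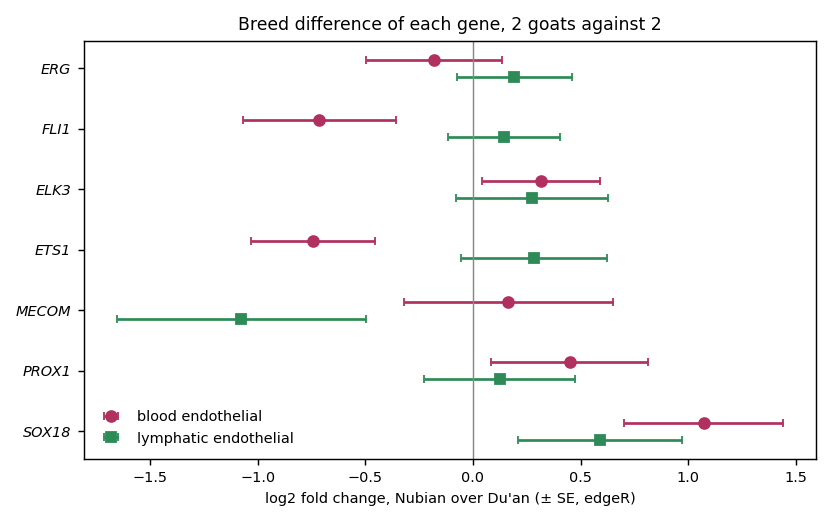
Log2 fold change of each factor, Nubian over Du'an (2 goats each), in blood-gated (circles) and lymphatic-gated (squares) nuclei. Bars are 1 SE derived from the F statistic of edgeR. In blood-gated nuclei SOX18 is at 1.07 and ETS1 and FLI1 at -0.74 and -0.71, and no value passed the test.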

How the data were processed

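Nuclei of the left ovary of 2 Nubian and 2 Du'an goats were profiled with 10x Genomics 3′ chemistry. The authors deposited unnormalized UMI counts per gene and nucleus from Cell Ranger (version 5.0.0 in the submitters' processing notes, 3.1.0 in the matrix header). The genome is given by an assembly number only, and whether intronic reads were counted is not given in the sources used here. Deposited marker tables of granulosa groups hold the authors' own comparisons and were not used. Gene names, neighbours and overlaps came from RefSeq (ARS1.2).

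Nuclei were kept within 2 SD of each library's mean UMI and gene counts and with at most 20% mitochondrial UMIs. No doublet caller was run; the margin of 2 genes between 14 marker lists was the only step against mixed nuclei, and some may remain. Classes with fewer than 20 nuclei in a goat were not summed for that goat, and theca, pericyte, epithelial and B cell gates gave no sum. Counts of 35 sums of 10 classes were fitted once with edgeR 4.0.16 (R 4.3.3; TMM, filterByExpr), with goat as a block because sums of several classes came from the same goat (granulosa progenitor and ciliated in 2 goats, stromal in 3). Benjamini-Hochberg adjustment ran over all tested genes except gate genes, at 0.05. The SE given with an edgeR log2 fold change is its absolute value divided by the square root of the F statistic. Leiden clusters (scanpy 1.11.5, leidenalg 0.10.2; 2000 variable genes, 30 components, 20 neighbours, resolution 0.8) were named by limits set after the data were seen. The blood against lymphatic fit and the breed fit of blood-gated nuclei were also run on simulated data, with an outcome not reported here.

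The 7 factors, the gates and the 4 gene lists were chosen with earlier results of these data known. List genes named are at most 4 per direction with the largest called fold, and the 3 genes most like each factor by Pearson's r (prior count of 2). KLF4, NR2F2, HEY2, GATA2, FOXC1, TBX3 and the genes used to check the gates were named after their values were seen. Alternatives changed the gates, the filter on nuclei, clusters, depth, normalization, the low-count filter, the tool, the block and the goats left out. Levels in single clusters, a margin of 1 gene and clusters for the breed comparisons were chosen after seeing the data.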

Additional observations from a re-analysis of the deposited data

Results flagged for a closer look

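SOX18 in fibroblast-gated nuclei was at 2.72 CPM in Nubian 1 and at 0 in the other goats, which set that goat apart, and the value rests on 1 UMI. Of 48 groups of 4 goats examined in this way 1 stood out. By this rule a group with 1 nonzero value beside zeros always stands out. The usual rate of about 1 in 20 by chance therefore does not apply to it. MECOM was at 3128 CPM (332 UMIs) in the 17 epithelial-gated nuclei of Nubian 2 and at 1506 CPM (144 UMIs) in the 10 of Du'an 2, which were too few to be summed into any comparison. The sums of the 8 non-endothelial classes ran from 0 to 2249 CPM.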

How the results depend on the processing

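Of the alternatives planned, only the strict gate that allowed no gene of any other list was not run, because too few endothelial nuclei were left. Between vessel types, 86 values kept their direction and their side of the threshold, 11 gained a call and 7 lost one, and none reversed. Without the replicate block (goat) the class fit still called the same number of factors (4), with ELK3 at -0.97 and ETS1 at -0.77. In the breed fits the replicate numbers only name goats, and the fit with a replicate block called no gene, with ETS1 at -0.75 and SOX18 at 1.03 in blood-gated nuclei. With a margin of 1 gene MECOM turned to 1.60 between breeds in lymphatic-gated nuclei and to -1.07 in the interaction; the cause was not tested. Leaving out each goat in turn gave ranges that crossed 0 between breeds for MECOM in blood-gated nuclei (-0.14 to 0.46), for ELK3 (-0.13 to 0.86), PROX1 (-0.18 to 0.51), ERG (-0.0036 to 0.36) and ETS1 (-0.24 to 0.66) in lymphatic-gated nuclei, and for ELK3 in the interaction (-0.42 to 0.33). In these fits the lone goat of a breed is assumed to vary like the others. Thinning to 1000 UMIs left 6428 genes to test and 1063, 1613 and 1729 calls in the blood against lymphatic, blood against other and lymphatic against other comparisons, in place of 2115, 3691 and 3306. Without the low-count filter 28 and 89 genes differed between breeds in blood-gated and lymphatic-gated nuclei, and leaving out 1 goat gave up to 84 (without Nubian 1), 86 (without Du'an 2) and 53 (interaction, without Nubian 2), none of them among the 7. Depth limits SOX18, with 19 to 71 UMIs per endothelial sum, and MECOM in lymphatic-gated nuclei, with 3 to 66.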
